A study of Mus musculus with 26 samples.

Results

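The genes described here are 10 mouse genes of the unfolded protein response and of the response to amino acid shortage: Hspa5, Xbp1, Dnajb9, Herpud1, Ddit3, Atf4, Trib3, Asns, Chac1 and Fgf21. They were chosen by symbol, through the Ensembl identifier of each row of the count table, and all 10 were found among its 47643 genes. Liver mRNA was read in 26 libraries that form 10 groups and 5 comparisons, and each treated group was set against its own control. Levels are in CPM, the usual depth-scaled unit for read counts, with library sizes adjusted by the TMM method.

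Groups of 2 libraries came from 8-week-old C57BL/6J mice given corn oil or TCPOBOP, a synthetic agonist of the nuclear receptor CAR. The sample titles put the TCPOBOP livers 36 h after the injection and another label puts them at 6 h. Wild type and Fxr-/- Shp-/- mice, with knockouts of the bile acid receptor FXR and its partner repressor SHP, were C57BL/6J, 12 weeks old, with 3 libraries each. Sham livers taken at 0 h and livers taken 48 h after partial hepatectomy came from C3H/HeN mice of 8 to 10 weeks, with 3 libraries each. These 3 experiments used whole liver of mice fed freely. Hepatocytes from C57BL/6J mice of 16 weeks on chow or on a diet labelled 60% high fat were taken after a 10 h fast, with 2 libraries each. Whole liver of C57BL/6J mice of 10 to 12 weeks that carried floxed alleles of Fxr and Shp, in both groups and with no Cre named, was taken after a fast of 8 to 10 h from mice on chow or on a cholic acid diet, with 3 libraries each. The labels do not say whether libraries of a group came from separate mice, so the p-values measure the spread between libraries, which may be partly technical.

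Proteins that fail to fold in the endoplasmic reticulum (ER) are sensed by IRE1, ATF6 and PERK, which raise chaperones and degradation factors through spliced XBP1, cleaved ATF6 and ATF4. Several kinases, PERK for unfolded protein and GCN2 for missing amino acids among them, phosphorylate eIF2 alpha, which slows translation in general while favouring translation of ATF4. ATF4 then raises amino acid synthesis and transport genes, CHOP (the product of Ddit3), Trib3, Chac1 and the liver hormone Fgf21. Splicing of Xbp1, phosphorylation and ATF4 protein were not measured by the gene counts.

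The genes lie, in GRCm38 coordinates of the GENCODE M21 annotation, at chr2:34771970-34777547 (Hspa5, plus strand), chr11:5520659-5525893 (Xbp1, plus), chr12:44205559-44210326 (Dnajb9, minus), chr8:94386438-94395377 (Herpud1, plus) and chr10:127290774-127296288 (Ddit3, plus). The others lie at chr15:80255184-80257541 (Atf4, plus), chr2:152337422-152344032 (Trib3, minus), chr6:7675169-7693254 (Asns, minus), chr2:119351229-119354381 (Chac1, plus) and chr7:45613886-45615490 (Fgf21, minus). All 10 are annotated as protein coding. Exons of Ddit3 overlap those of Mars and Gm4189 on the other strand and a second annotated Ddit3 locus on the same strand, and an exon of Dnajb9 overlaps Mir5627. Whether the counting used strand is not given in the sources used here, so the level of Ddit3 in particular is uncertain.

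Exact matches to known response elements of each branch were sought in the promoters. Sequences of the 250 bases before the RefSeq transcription start (GRCm38.p6) were available for all 10 genes and were searched on both strands for 4 motifs. The ER stress element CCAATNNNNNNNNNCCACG, the site of ATF6 with NF-Y, was present in 0.113% of 32851 promoter windows of this length and, among the 10 genes, in Hspa5. Its second form ATTGGNCCACG was in 0.0304% of windows and in Herpud1. The C/EBP-ATF composite element TGATGNAA, the site of ATF4 in amino acid response genes, was in 3.45% of windows and in 4 of the 10 genes, Herpud1, Asns, Chac1 and Fgf21. The unfolded protein response element TGACGTGG, a site of spliced XBP1, was in 0.563% of windows and in 0 of the 10. Trib3 had a composite element 15 bases after its RefSeq start, outside the window. The 5 promoters with a match in the window are shown 5′ to 3′ on the strand of the gene, with the matching letters in capitals; in Herpud1, Chac1 and Fgf21 the composite element reads on the opposite strand, so its reverse complement is capitalised. Their windows are chr2:34771840-34772089 (Hspa5), chr8:94386179-94386428 (Herpud1), chr6:7693210-7693459 (Asns), chr2:119350992-119351241 (Chac1) and chr7:45615491-45615740 (Fgf21).
Hspa5: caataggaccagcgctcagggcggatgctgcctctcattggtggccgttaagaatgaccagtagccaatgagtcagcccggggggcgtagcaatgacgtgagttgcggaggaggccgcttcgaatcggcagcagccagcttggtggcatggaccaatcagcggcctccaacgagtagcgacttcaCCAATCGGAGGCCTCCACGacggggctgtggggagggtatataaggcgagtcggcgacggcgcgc
Herpud1: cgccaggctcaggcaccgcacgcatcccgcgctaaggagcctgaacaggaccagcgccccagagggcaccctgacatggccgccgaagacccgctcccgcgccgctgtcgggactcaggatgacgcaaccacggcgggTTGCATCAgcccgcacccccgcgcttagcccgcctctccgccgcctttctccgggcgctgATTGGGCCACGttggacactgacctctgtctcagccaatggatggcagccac
Asns: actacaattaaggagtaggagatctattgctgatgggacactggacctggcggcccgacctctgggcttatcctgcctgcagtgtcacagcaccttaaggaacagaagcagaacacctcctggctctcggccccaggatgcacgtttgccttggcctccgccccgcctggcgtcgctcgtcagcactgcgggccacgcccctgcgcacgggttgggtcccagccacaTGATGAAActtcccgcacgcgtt
Chac1: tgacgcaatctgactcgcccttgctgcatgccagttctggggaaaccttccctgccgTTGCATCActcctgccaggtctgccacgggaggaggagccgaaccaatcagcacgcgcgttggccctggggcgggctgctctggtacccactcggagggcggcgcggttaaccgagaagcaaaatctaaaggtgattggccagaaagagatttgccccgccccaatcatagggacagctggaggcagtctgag
Fgf21: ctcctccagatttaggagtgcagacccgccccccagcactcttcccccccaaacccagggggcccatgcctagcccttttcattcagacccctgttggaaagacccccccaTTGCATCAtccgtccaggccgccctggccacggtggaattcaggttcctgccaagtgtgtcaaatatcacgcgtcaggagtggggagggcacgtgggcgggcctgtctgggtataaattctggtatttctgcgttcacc
The ER stress element of Hspa5 spans bases 65 to 47 before the start, and the second form in Herpud1 spans bases 52 to 42. The composite elements lie 112 to 105 bases before the start in Herpud1, 23 to 16 in Asns, 193 to 186 in Chac1 and 139 to 132 in Fgf21. These positions are from the RefSeq start, which differs from the GENCODE M21 gene start for some genes. By the GENCODE positions above, the elements of Hspa5 and Asns lie inside the gene and that of Trib3 lies before it. A match describes the letters in this window and says nothing of binding, and a window without a match may have sites elsewhere.

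Counts assigned to genes ranged from 13949059 to 70367874 per library, so that 3 counts, taken as the smallest level shown, correspond to 0.0426 to 0.215 CPM. Nr0b2, which encodes SHP, fell from 14.4, 26.8 and 13.3 CPM in the wild type libraries to 0.563, 1.10 and 1.59 CPM in those of Fxr-/- Shp-/- mice. Nr1h4, which encodes FXR, was at 147, 153 and 114 CPM in wild type and still at 61.5, 52.9 and 55.4 CPM in Fxr-/- Shp-/- libraries, and gene counts do not show whether those reads come from the deleted part. The library labelled corn oil 1 went against its label: the CAR target Cyp2b10 was at 3672 CPM there, against 10.0 CPM in corn oil 2 and 3419.8 and 2976 CPM after TCPOBOP, so both corn oil libraries are given separately below. Summed hepatocyte markers (4 genes, albumin among them) were the highest of the marker sums in every library. Of 7 summed marker lists, those whose ranges did not overlap between a treated group and its control are given here, and the other sums overlapped. In Fxr-/- Shp-/- livers, stellate cell and fibroblast markers (4 genes) were at 338 to 387 CPM against 145 to 241 in wild type, and bile duct markers (4 genes) at 11.4 to 18.6 against 5.01 to 7.34. Lower there were hepatocyte markers, at 59041 to 79129 against 80274 to 107742, and markers of plasma cells (4 genes), a secretory cell type rich in this response, at 3.64 to 6.32 against 8.76 to 10.1. After hepatectomy, hepatocyte markers were at 89537 to 100725 CPM against 117743 to 123789 in sham livers, plasma cell markers at 3.501 to 3.85 against 5.48 to 6.01 and bile duct markers at 6.89 to 12.7 against 4.81 to 6.77. In the hepatocyte preparations, endothelial markers (4 genes) were at 76.9 to 84.03 CPM on high fat diet against 33.3 to 35.96 on chow, stellate markers at 25.1 to 28.6 against 6.88 to 10.2, and leukocyte markers at 31.7 in each against 14.8 to 17.9. Bile duct markers went the other way there, at 1.68 to 3.47 against 5.30 to 6.87. On cholic acid endothelial markers were at 81.2 to 120.1 CPM against 60.6 to 69.2 on chow, and after TCPOBOP bile duct markers were at 7.47 to 8.94 against 9.39 to 13.7 in corn oil. The sum of 6 pancreatic acinar markers was nearly all Cela1, at 5.36 to 45.3 CPM over the libraries, while Prss2, Cpa1 and Cel had 0 counts in all and Pnlip and Ctrb1 reached at most 0.0584 CPM. It was lower in 4 of the 5 treated groups than in their controls without overlap, and overlapped after hepatectomy. In whole liver, fewer cells of a type and less RNA per cell cannot be told apart, and the part of these other cells in the results below was not tested.

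The 10 genes did not move as a block, and they split most in the Fxr-/- Shp-/- livers. There, 7 of the 10 were called changed by edgeR's quasi-likelihood test at a Benjamini-Hochberg adjusted p under 0.05, against 40.4% of the 13473 genes tested. Asns, Fgf21 and Dnajb9 rose (21.0% of genes tested rose), while Herpud1, Hspa5, Trib3 and Xbp1 fell (19.4% fell). The groups did not overlap for these 7 genes (53.7% of genes tested did not overlap) and overlapped for Ddit3, Atf4 and Chac1. That share was not taken in the other comparisons, so non-overlap of a member is only a description there. After partial hepatectomy 3 of the 10 were called, against 30.7% of 13753 genes: Asns rose (16.4% rose), and Herpud1 and Chac1 fell (14.3% fell). In hepatocytes from mice on the high fat diet 1 of the 10, Asns, was called and fell, against 24.0% of 13892 genes called and 11.1% lowered. The cholic acid diet gave 0 calls among the 10 by edgeR or DESeq2, with 0 at an unadjusted p under 0.05, against 4.77% of 12577 genes (2.27% raised and 2.5% lowered). TCPOBOP gave 0 calls among the 9 genes that passed the filter on low counts, against 0.0% of 12785 genes (751 genes had an unadjusted p under 0.05, and DESeq2 called 91). Trib3, 1 of the 9, had an unadjusted p under 0.05 and was called by DESeq2.

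The median log2 fold change of the members was 0.10 after TCPOBOP, -0.03 in Fxr-/- Shp-/- livers and -0.05 after hepatectomy, and it was -0.28 both on cholic acid and in hepatocytes on high fat diet, where the medians of all genes tested lay between -0.02 and 0.01. The 3 of 10 called after hepatectomy is close to the 30.7% of all genes, while the 7 of 10 in Fxr-/- Shp-/- livers is above the 40.4%. The members were chosen with earlier results of these data known, so this count was not tested and shows no excess. With all 26 libraries in 1 fit, 4 of the 10 were called there, beside 4803 of 14921 genes. Stellate cell and bile duct markers were higher and hepatocyte and plasma cell markers lower in the same Fxr-/- Shp-/- libraries, and hepatocyte and plasma cell markers were lower and bile duct markers higher after hepatectomy, as given above. The plot of log2 fold changes shows that Asns had the widest spread of the 10, from -5.05 on high fat diet to 2.86 in Fxr-/- Shp-/- livers, and that Atf4 had the narrowest, from -0.26 to 0.08.

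**Figure D1:**
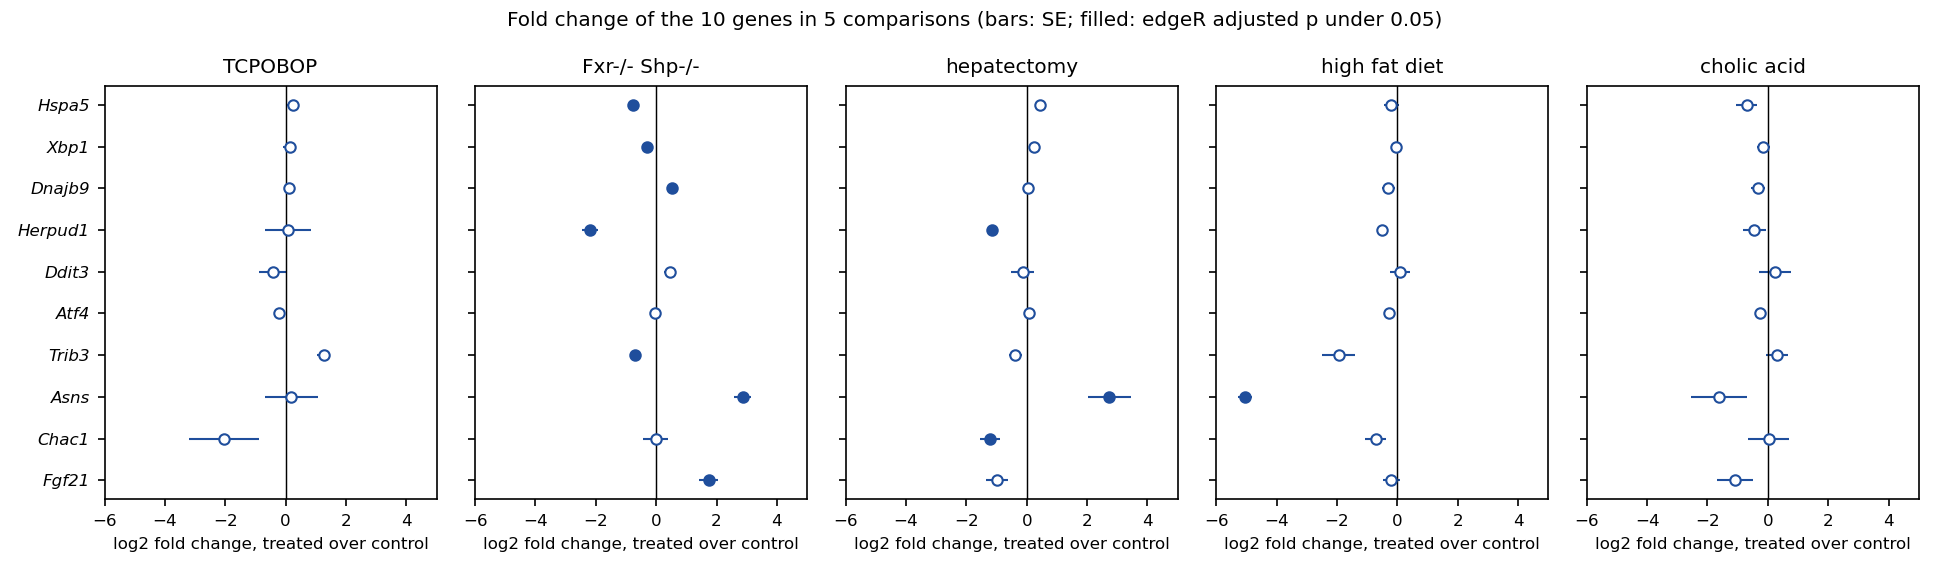
Log2 fold change of each of the 10 genes in the 5 comparisons, treated over its own control, with bars for 1 SE and filled points for genes called at an edgeR adjusted p under 0.05. Asns lies far above 0 in Fxr-/- Shp-/- livers and after hepatectomy and far below it on high fat diet, and Herpud1 is below 0 in both of the first 2.

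Per kilobase of exon, the scale on which genes can be compared, Herpud1, Hspa5, Xbp1, Atf4 and Dnajb9 were far more abundant than the other 5 genes. The median over 26 libraries was 215 CPM per kb for Herpud1, 169.6 for Hspa5, 54.0 for Xbp1, 36.7 for Atf4 and 36.7 for Dnajb9. It was 4.22 for Trib3, 3.03 for Ddit3, 2.18 for Asns, 1.85 for Fgf21 and 1.11 CPM per kb for Chac1. The highest library exceeded the lowest 433-fold for Asns, 38.7-fold for Chac1, 34.2-fold for Fgf21 and 14.1-fold for Trib3. This ratio was 9.59 for Herpud1, 5.77 for Ddit3, 5.55 for Hspa5, 2.98 for Dnajb9, 2.11 for Xbp1 and 1.97 for Atf4. The lowest libraries held 13 counts of Asns, 4 of Chac1 and 3 of Fgf21, so counting error adds to these ratios.

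Hspa5 encodes BiP, the main ER chaperone, which also holds the stress sensors inactive. Its level was 862, 964 and 969 CPM in the wild type libraries and 541, 533 and 527 in those of Fxr-/- Shp-/- mice. All Fxr-/- Shp-/- libraries were below all wild type libraries and close to each other, a fall to 0.581 of the wild type level (log2 -0.78 ± 0.10 SE, adjusted p = 0.000421). After hepatectomy Hspa5 was at 779, 725 and 1215 CPM against 709.7, 648 and 626 in sham livers. Replicate 3 stood highest and the groups did not overlap, yet the difference did not pass (log2 0.46 ± 0.19, adjusted p = 0.1000). On chow the floxed livers ranged widely, at 589, 932 and 413 CPM, and those on cholic acid were at 255, 408 and 526 CPM, which overlap (log2 -0.70 ± 0.35, adjusted p = 0.276). Hepatocytes had 661 and 947 CPM on chow and 560.5 and 860.0 on high fat diet, again overlapping. The TCPOBOP livers, at 1347 and 1415 CPM, were the highest of all groups, above 1148 and 1170.3 in corn oil, by a log2 fold change of 0.24 ± 0.20 that was not called (adjusted p = 0.946).

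Xbp1 encodes the transcription factor that IRE1 activates by splicing its mRNA, and the gene is itself raised by ATF6. Its total mRNA varied little, from 122 to 258 CPM over all libraries. Wild type livers had 174, 176 and 171 CPM and Fxr-/- Shp-/- livers 139, 142 and 134, with no overlap (log2 -0.31 ± 0.08, adjusted p = 0.0151). This small fall was lost when wild type 1 or Fxr-/- Shp-/- 1 was left out, with an adjusted p of up to 0.0561 over the 6 leave-out fits. The other 4 comparisons gave overlapping groups and no call, with log2 fold changes from -0.15 on cholic acid to 0.25 after hepatectomy, where the livers were at 234, 169.5 and 258 CPM against 185, 179 and 192 in sham.

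Dnajb9 encodes ERdj4, a co-chaperone of BiP that acts in ER-associated degradation and is a known target of spliced XBP1. It went up where Hspa5 and Xbp1 went down: wild type livers had 67.6, 93.5 and 72.7 CPM and Fxr-/- Shp-/- livers 111, 107 and 116. All 3 Fxr-/- Shp-/- libraries were above all wild type libraries, a 1.45-fold rise (log2 0.53 ± 0.13, adjusted p = 0.0107) that was called with each of the 6 libraries left out in turn. In the other comparisons the groups overlapped and Dnajb9 was not called, with log2 fold changes from -0.32 on cholic acid to 0.10 after TCPOBOP.

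Herpud1 encodes an ER membrane protein that helps to assemble the degradation machinery, and it fell the most of the 4 ER genes. Wild type livers had 775, 781 and 854 CPM and Fxr-/- Shp-/- livers 137, 117 and 265. Even the highest Fxr-/- Shp-/- library lay far below the lowest wild type library, and the level was 4.57-fold lower (log2 -2.19 ± 0.28, adjusted p = 0.000445). Sham livers agreed closely at 517, 520.0 and 543 CPM and hepatectomised livers had 220.1, 193 and 291, a 2.24-fold fall without overlap (log2 -1.17 ± 0.15, adjusted p = 0.000865). Both falls were called with each of the 6 libraries left out in turn. Sham and hepatectomised livers differ in the hour of collection after surgery as well as in the operation, and these cannot be told apart.

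In hepatocytes Herpud1 was at 1024 and 1059 CPM on chow, the highest group, and at 633 and 846 on high fat diet. The groups did not overlap, but the difference lay just outside the threshold (log2 -0.52 ± 0.15, adjusted p = 0.0535) and passed it with DESeq2 (adjusted p = 0.00741). The corn oil libraries were at 110.5 and 610.2 CPM, on either side of the TCPOBOP libraries at 382 and 388. The TCPOBOP comparison of Herpud1 therefore turned on 1 control: its log2 fold change was 0.09 ± 0.76 with both, 1.79 without corn oil 2 and -0.67 with corn oil 2 alone, and both of the latter were called. Cholic acid livers, at 307, 329 and 719 CPM, overlapped those on chow, at 469, 887 and 485 (log2 -0.44 ± 0.39, adjusted p = 0.528).

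Ddit3 encodes CHOP, the transcription factor linked to cell death in prolonged ER stress. It was scarce everywhere, from 1.999 to 11.5 CPM, and was not called in any of the 5 comparisons. Fxr-/- Shp-/- livers had 5.28, 7.19 and 7.11 CPM against 3.72, 5.36 and 5.41 in wild type, which overlap (log2 0.46 ± 0.20, adjusted p = 0.103). The highest library of all was a cholic acid liver: that group had 2.68, 4.74 and 11.5 CPM and the chow group 4.22, 7.59 and 4.28, with log2 0.24 ± 0.52.

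**Figure D2:**
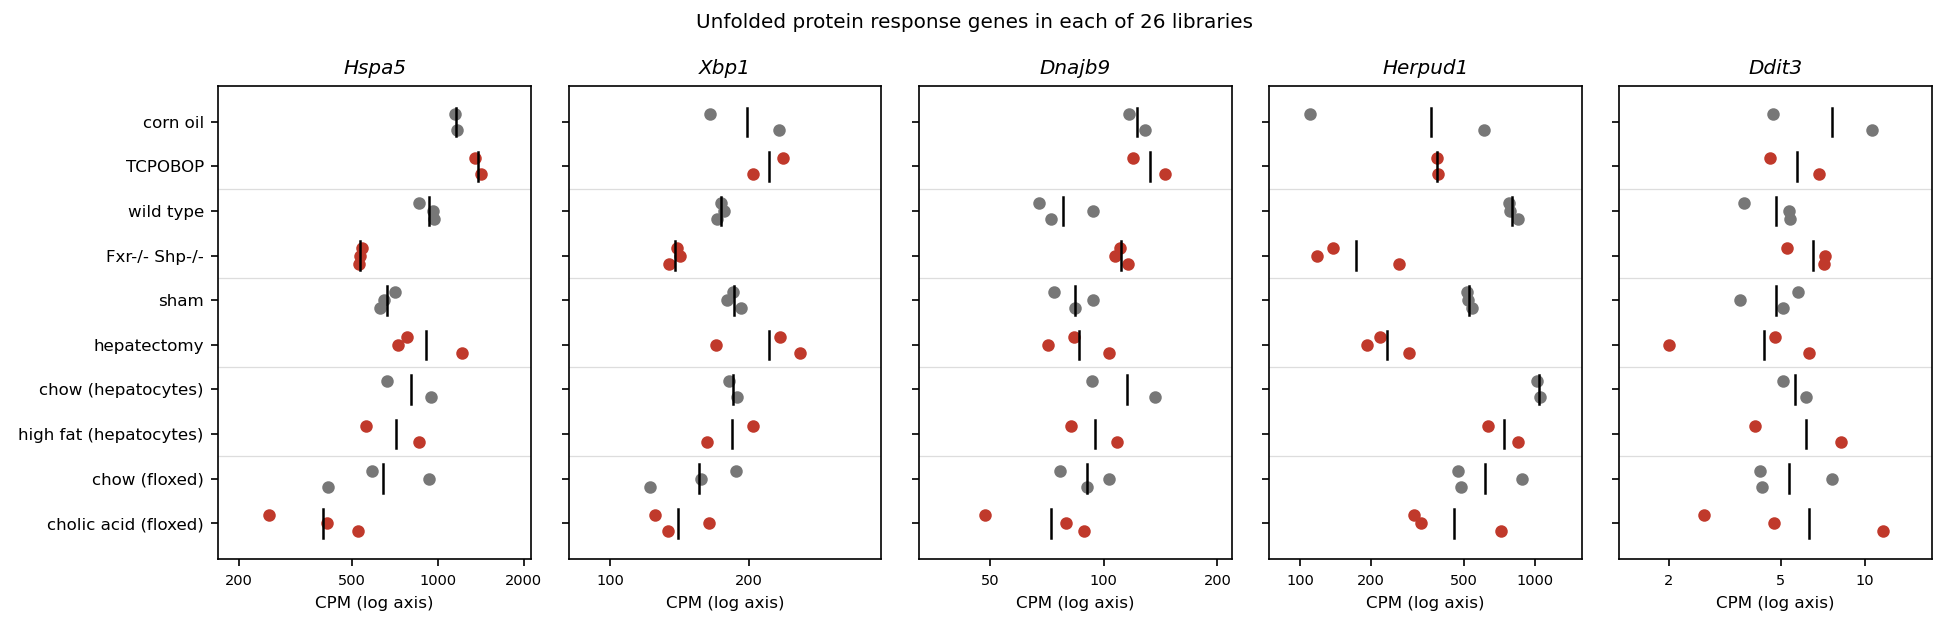
Level of Hspa5, Xbp1, Dnajb9, Herpud1 and Ddit3 in each of the 26 libraries, in CPM on a log axis, with 1 row per group, grey points for controls, red points for treated groups and a black line at the group mean. Fxr-/- Shp-/- livers lie below wild type for Hspa5, Xbp1 and Herpud1 and above it for Dnajb9, and the 2 corn oil libraries lie far apart for Herpud1.

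Atf4 encodes the transcription factor at the centre of the response to eIF2 alpha phosphorylation, and it is controlled largely at translation. Its mRNA was the steadiest of the 10, from 59.2 to 117 CPM, and it was not called in any comparison. Fxr-/- Shp-/- livers had 85.4, 86.00 and 90.9 CPM and wild type livers 87.7, 87.4 and 97.2 (log2 -0.03 ± 0.08, adjusted p = 0.770). Hepatocytes on high fat diet had 60.7 and 59.2 CPM, the lowest group, against 68.9 and 72.1 on chow. Those groups did not overlap, and the difference lay at the threshold (log2 -0.26 ± 0.07, adjusted p = 0.0503 by edgeR and 0.0495 by DESeq2).

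Asns encodes asparagine synthetase, an ATF4 target that rises when amino acids are short, and it changed most of the 10 genes. Its level was 8.77, 6.02 and 9.58 CPM in wild type livers and 41.2, 47.4 and 86.2 in Fxr-/- Shp-/- livers. Every Fxr-/- Shp-/- library was above every other group's libraries except hepatectomy replicate 2, which lay between them, and the rise over wild type was 7.26-fold (log2 2.86 ± 0.30, adjusted p = 0.000155). After hepatectomy Asns was at 17.1, 47.7 and 4.54 CPM against 3.22, 3.91 and 3.20 in sham livers. The hepatectomised livers spread over a wide range, the lowest only just above the sham livers. The 6.68-fold rise (log2 2.74 ± 0.72, adjusted p = 0.0224) was not called when any 1 of the 3 sham libraries was left out. Over the 6 leave-out fits its log2 values ran from 1.64 to 3.23, with an adjusted p of up to 0.0867.

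In hepatocytes Asns moved the other way, from 7.80 and 8.02 CPM on chow to 0.285 and 0.199 on high fat diet. The chow pair agreed closely, the high fat diet pair rested on 19 and 13 counts, and the level was 33.03-fold lower (log2 -5.05 ± 0.22, adjusted p = 0.000588); the fall was called in each of the 4 leave-out fits. The markers of endothelial, stellate and immune cells were higher, and those of bile duct lower, in the same high fat diet libraries, as given above. Floxed livers had 4.37, 1.83 and 21.96 CPM on chow and 5.91, 0.755 and 2.43 on cholic acid, which overlap (log2 -1.62 ± 0.93, adjusted p = 0.338). Chow replicate 3 was far above its group, and without it the log2 fold change was -0.022. Corn oil livers had 2.26 and 12.5 CPM and TCPOBOP livers 12.5 and 4.49, so each group held 1 low and 1 high library.

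Trib3 encodes a pseudokinase raised by ATF4 and CHOP that restrains both AKT signalling and ATF4 itself. In Fxr-/- Shp-/- livers it fell while Asns rose: wild type livers had 10.7, 9.51 and 9.94 CPM and Fxr-/- Shp-/- livers 5.41, 6.18 and 6.83. The groups did not overlap and the fall was to 0.620 of the wild type level (log2 -0.69 ± 0.14, adjusted p = 0.00492). After TCPOBOP Trib3 was at 23.9 and 17.8 CPM against 7.72 and 9.45 in corn oil. Both TCPOBOP libraries were above both controls, including the library labelled corn oil 1, but the 2.41-fold difference was not called by edgeR (log2 1.27 ± 0.21, adjusted p = 0.679) and was called by DESeq2 (adjusted p = 0.00913). In hepatocytes it was at 29.1 and 13.97 CPM on chow and 8.50 and 2.92 on high fat diet, 4 spread libraries with no overlap that lay just outside the threshold (log2 -1.94 ± 0.55, adjusted p = 0.0527). The lowest group means were those of the C3H/HeN livers, with libraries at 3.07 to 3.32 CPM in sham and 2.06 to 3.22 after hepatectomy, which overlap. High fat diet 2, at 2.92 CPM, lay below the sham livers.

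Chac1 encodes an enzyme that breaks down glutathione and is a known target of ATF4. It was scarce, from 0.243 to 9.41 CPM. Sham livers had 2.58, 2.37 and 1.94 CPM and hepatectomised livers 1.51, 0.782 and 0.676. The groups did not overlap and the level was 2.32-fold lower (log2 -1.21 ± 0.32, adjusted p = 0.0236), although the call was lost without sham 1, sham 2 or hepatectomy 2 (adjusted p of up to 0.0765). Chac1 therefore fell in the comparison in which Asns rose. Hepatocytes had the highest levels, 9.41 and 6.87 CPM on chow and 3.30 and 6.81 on high fat diet, without overlap and without a call (adjusted p = 0.191). Fxr-/- Shp-/- livers, at 1.43, 0.927 and 2.04 CPM, overlapped wild type livers, at 2.12, 1.69 and 0.706 (log2 -0.02 ± 0.43). The corn oil pair was far apart again, at 0.331 and 3.33 CPM, and TCPOBOP 1 lay between them and TCPOBOP 2 below both, at 0.638 and 0.243.

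Fgf21 encodes a hormone that the liver secretes in fasting, under PPAR alpha, and in amino acid shortage, under ATF4. Wild type livers had 0.464, 0.963 and 0.647 CPM and Fxr-/- Shp-/- livers 1.99, 2.60 and 2.21. All Fxr-/- Shp-/- libraries were above all wild type libraries, a 3.34-fold rise (log2 1.74 ± 0.31, adjusted p = 0.00264) that was called in each of the 6 leave-out fits. The 3 groups with the highest means were taken after a fast: 5.96 and 3.48 CPM in chow hepatocytes, 4.41 and 3.995 in hepatocytes on high fat diet and 2.44, 4.95 and 3.33 in floxed livers on chow. The fourth fasted group, floxed livers on cholic acid, had a lower mean (1.67 CPM) than the freely fed sham (1.94) and Fxr-/- Shp-/- (2.27) livers. Fasting was not varied within an experiment, so the fast, the cell preparation and the genotype cannot be told apart in that order. On cholic acid Fgf21 was at 2.83, 0.431 and 1.76 CPM, overlapping chow (log2 -1.09 ± 0.59, adjusted p = 0.307). After hepatectomy it was at 1.39, 0.666 and 0.865 CPM against 2.77, 1.75 and 1.30 in sham, overlapping and not called by edgeR (log2 -0.99 ± 0.37, adjusted p = 0.0765) but called by DESeq2 (0.0423). The TCPOBOP libraries held 3 counts each, at the smallest level shown, and the corn oil libraries 0.220 and 1.44 CPM, so Fgf21 did not pass the filter and no fold is given.

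**Figure D3:**
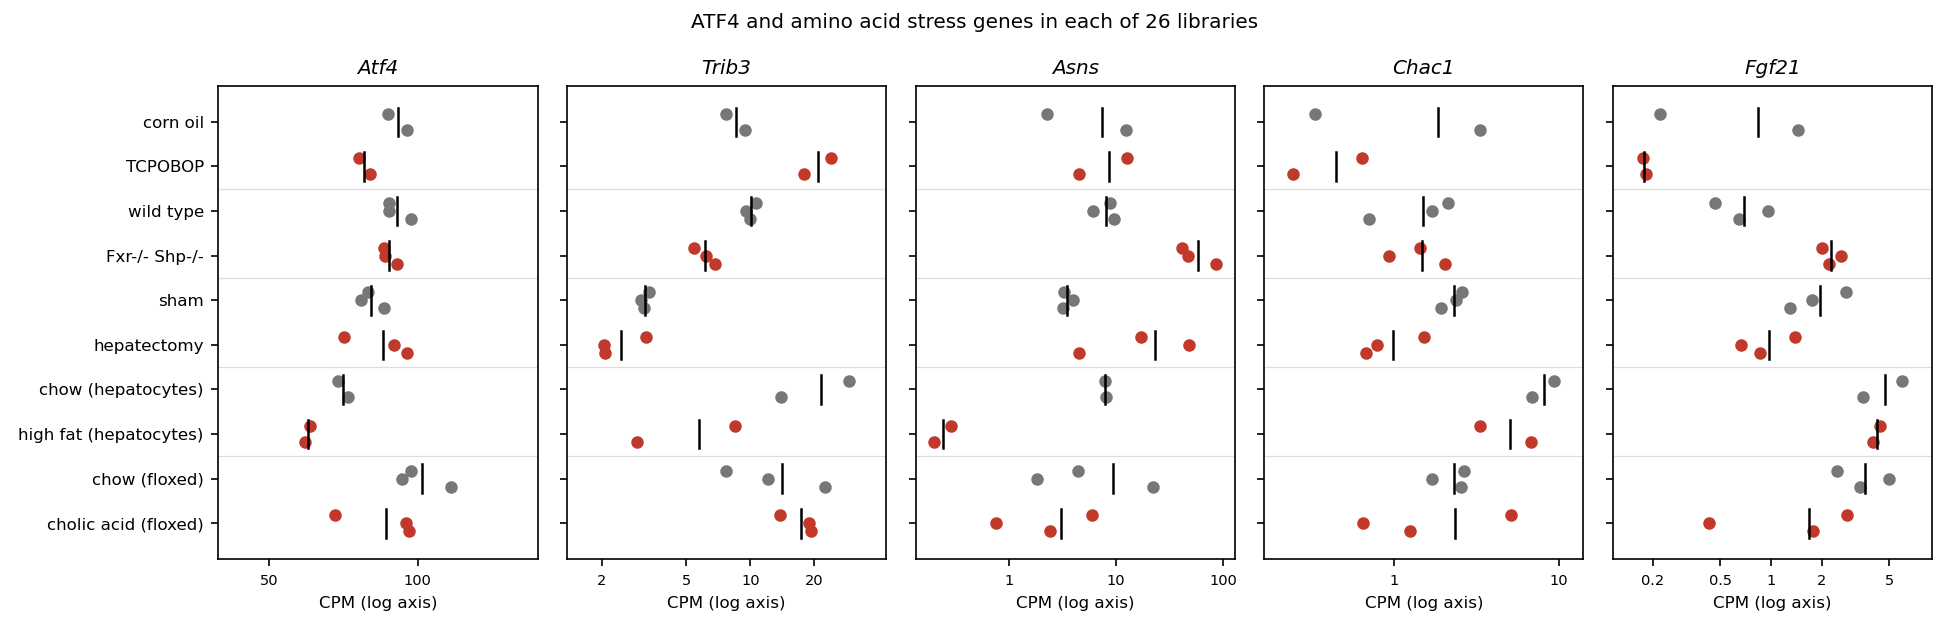
Level of Atf4, Trib3, Asns, Chac1 and Fgf21 in each of the 26 libraries, in CPM on a log axis, with 1 row per group, grey points for controls, red points for treated groups and a black line at the group mean. Asns is highest in Fxr-/- Shp-/- livers and lowest, at 0.285 and 0.199 CPM, in hepatocytes on high fat diet, while Atf4 stays between 59.2 and 117 CPM.

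The levels can be ordered over the 10 groups by their means. Hspa5 ran from 396 ± 136 CPM (SD, n = 3) on cholic acid to 1381 ± 48.2 (n = 2) after TCPOBOP; cholic acid and Fxr-/- Shp-/- livers did not overlap at the bottom, nor did wild type, corn oil and TCPOBOP at the top, and all neighbours between them overlapped. Herpud1 ran from 173 ± 79.8 in Fxr-/- Shp-/- livers to 1041 ± 25.3 in chow hepatocytes, and chow hepatocytes alone stood clear of their neighbour. Asns ran from 0.242 ± 0.0607 in hepatocytes on high fat diet, clear of the next group, to 58.3 ± 24.4 in Fxr-/- Shp-/- livers, whose range met that of hepatectomised livers. Trib3 ran from 2.45 ± 0.662 to 21.5 ± 10.7, Chac1 from 0.441 ± 0.280 to 8.14 ± 1.80 and Fgf21 from 0.178 ± 0.00574 to 4.72 ± 1.76. For Xbp1, Dnajb9 and Ddit3 every group overlapped its neighbour in the order. Atf4 ran from 59.9 ± 1.04 in hepatocytes on high fat diet to 102 ± 12.7 in floxed livers on chow, and the 3 lowest groups, both of hepatocytes and TCPOBOP, did not overlap each other.

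Lists of 90 other genes of these pathways, of which 88 were in the table, show how the members sat among their partners. Of all genes tested, 21.0% rose and 19.4% fell in Fxr-/- Shp-/- livers and 16.4% rose and 14.3% fell after hepatectomy. On high fat diet 12.9% rose and 11.1% fell, and on cholic acid 2.27% rose and 2.5% fell. The lists are short, and a count near these shares is not a result about its list. Of 14 ER chaperones and folding enzymes tested, 12 fell and 0 rose in Fxr-/- Shp-/- livers, with a median log2 fold change of -0.77 against -0.0069 for all genes. Sdf2l1, a luminal partner of BiP, went from 20.6 ± 1.38 to 4.50 ± 0.810 CPM (SD, n = 3 each; log2 -2.18 ± 0.15, adjusted p = 1.61e-05), and Calr, which encodes the lectin chaperone calreticulin, from 758 ± 29.9 to 330.4 ± 41.3 (log2 -1.18 ± 0.12). The 2 not called, named after their values were seen, were the disulfide isomerase P4hb (0.18) and the oxidase Ero1l (0.19). Leaving out any 1 library kept 10 or 11 falls and 0 rises. The same list went the other way after hepatectomy: 9 of 14 rose and 0 fell, with a median of 0.41 against 0.014 for all genes. Sdf2l1 rose by a log2 fold change of 1.57 ± 0.32 and Creld2, an ER isomerase, by 1.02 ± 0.23, and Hspa5 itself, at 0.46, was not called. The count was 5 without sham 2 and 6 without sham 3. Plasma cell markers were lower in both treated groups, as given above. On high fat diet 1 of 14 fell, the chaperone Hyou1 (-0.83), and on cholic acid 0 of 14 were called, with medians of -0.22 and -0.52. The count on high fat diet was 4 without chow 1, 3 without high fat diet 2 and 0 without chow 2 or high fat diet 1, and on cholic acid 3 fell without chow 3. After TCPOBOP 0 of 14 were called, with a median of 0.53, but 9 rose without the library labelled corn oil 1 and 3 rose without corn oil 2.

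Among the 8 ER stress sensors and membrane factors, Eif2ak3, which encodes PERK, rose by log2 1.08 ± 0.18 in Fxr-/- Shp-/- livers and 0.49 ± 0.14 after hepatectomy, and fell on high fat diet (-0.65 ± 0.15). Creb3l2, a membrane-bound transcription factor, took the same 3 directions, at 0.66, 0.69 and -0.96. In all, 2 rose and 2 fell in Fxr-/- Shp-/- livers, 2 rose and 1 fell after hepatectomy, and 0 rose and 4 fell on high fat diet. These counts were small and moved with single libraries. Those in Fxr-/- Shp-/- livers, 25.0% raised and 25.0% lowered, were near the 21.0% and 19.4% of all genes. In Fxr-/- Shp-/- livers 1 rose and 1 fell without wild type 1, wild type 3, Fxr-/- Shp-/- 1 or Fxr-/- Shp-/- 2. After hepatectomy 0 rose without sham 1 or sham 3 and 1 rose without hepatectomy 3, and 0 fell without sham 2, sham 3 or hepatectomy 2. The 4 on high fat diet became 2 without chow 2 and 1 without high fat diet 1 or high fat diet 2. Of 10 genes of ER-associated degradation, 3 fell in Fxr-/- Shp-/- livers, with Os9 at -0.57 and the adaptor Sel1l at -0.50, and 3 fell in each of the 6 leave-out fits. After hepatectomy 1 fell, Derl2 (-0.51), and on high fat diet 1 rose, Derl3 (1.46), and 2 fell, of which Edem2 was at -0.42. The call after hepatectomy was lost without hepatectomy 2, and on high fat diet 1 rose in the fit without high fat diet 1 and 0 in the other 3, while 3 fell without chow 1, 1 without chow 2 and 0 without high fat diet 1 or high fat diet 2. Of the 6 eIF2 alpha kinases and phosphatase subunits, 2 rose (33.3%, against 21.0% of all genes) and 1 fell (16.7%, against 19.4%) in Fxr-/- Shp-/- livers. There the phosphatase subunit Ppp1r15b was at -0.51 and Eif2ak4, which encodes GCN2, at 0.47. After hepatectomy 1 rose and 2 fell, with Ppp1r15a, the inducible phosphatase subunit, at -0.47. Against wild type, 0 rose without wild type 3 or Fxr-/- Shp-/- 1 and 1 rose in the other 4 leave-out fits, and 2 fell without Fxr-/- Shp-/- 3. After hepatectomy 2 rose without hepatectomy 3 and 0 rose in the other 5 leave-out fits, and 1 fell without any 1 of the sham libraries.

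The genes downstream of ATF4 and CHOP were split in Fxr-/- Shp-/- livers and after hepatectomy. Of 13 tested, 6 rose and 5 fell in Fxr-/- Shp-/- livers (median 0.56), and 3 fell without wild type 1, wild type 3, Fxr-/- Shp-/- 1 or Fxr-/- Shp-/- 2. The lipoprotein receptor gene Vldlr rose from 1.41 ± 0.334 to 27.2 ± 4.16 CPM (log2 4.29 ± 0.20) and the transcription factor gene Atf3 by 3.19 ± 0.25. After hepatectomy 3 rose and 3 fell, and there Atf3 was the largest fall, from 24.9 ± 6.08 to 4.54 ± 0.766 CPM (log2 -2.45 ± 0.21), while Gdf15, a stress cytokine, rose by 2.21 ± 0.48. There 1 rose without sham 3 and 2 without sham 2, hepatectomy 1 or hepatectomy 2, while 2 fell without sham 2, sham 3 or hepatectomy 1. On high fat diet 1 of 12 rose and 1 fell (0 to 2 and 0 to 3 over the 4 leave-out fits), and on cholic acid 1 of 13 rose, Sesn2, a repressor of mTORC1 signalling (0.97). On cholic acid 1 rose and 2 fell without chow 3, and 0 were called in the other 5 leave-out fits.

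Enzymes that make serine, glycine and one-carbon units rose after hepatectomy: 5 of 6 tested rose and 0 fell, with a median of 1.72. The count was 5 in each of the 6 leave-out fits, whereas Asns was uneven over the hepatectomised livers, at 17.1, 47.7 and 4.54 CPM. Mthfd2, a mitochondrial folate enzyme, went from 1.39 ± 0.318 to 11.1 ± 0.848 CPM (log2 3.00 ± 0.19, adjusted p = 2.31e-05) and Psat1, of serine synthesis, rose by 2.33 ± 0.29. In Fxr-/- Shp-/- livers 2 of 6 rose and 1 fell, with Psat1 at 1.96 and Pck2 at 0.67, and 0 were called without wild type 1. Without Fxr-/- Shp-/- 1, 2 rose and 0 fell, and in the other 4 leave-out fits 1 rose and 1 fell. Of the cytosolic tRNA synthetases, 7 of 11 rose after hepatectomy, Cars by 1.13 and Lars by 0.39, 4 of 11 fell in Fxr-/- Shp-/- livers, Aars at -0.73 and Nars at -0.45, and 5 of 11 fell on high fat diet, Aars at -0.56 and Iars at -0.56. The count after hepatectomy was 3 without sham 2, 2 without sham 3 and 4 without hepatectomy 2, and that on high fat diet was 1 without high fat diet 1 and 3 without chow 1 or high fat diet 2. Without Fxr-/- Shp-/- 3, 2 rose in that comparison with wild type beside 4 that fell, and 0 rose in the other 5 leave-out fits.

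Among the amino acid carriers, the glutamine carrier gene Slc38a2 fell in 3 comparisons, with log2 fold changes of -1.80 ± 0.20 in Fxr-/- Shp-/- livers, -1.77 ± 0.31 after hepatectomy and -0.54 ± 0.11 on high fat diet. Slc1a4, a carrier of alanine, serine and cysteine, rose by 1.54 ± 0.21 and 2.20 ± 0.15 in the first 2. Of the 5 that rose in Fxr-/- Shp-/- livers, the cystine carrier Slc7a11, named after its values were seen, had 0 counts in the 3 wild type libraries. Counts were 5 raised and 2 lowered of 8 in Fxr-/- Shp-/- livers, 1 raised (2 without hepatectomy 3) and 2 lowered of 7 after hepatectomy, and 0 raised and 4 lowered of 7 on high fat diet (1 lowered without high fat diet 1, 2 without high fat diet 2). Of 10 genes for FGF21 receptors and fasting targets of PPAR alpha, 1 rose and 4 fell in Fxr-/- Shp-/- livers where Fgf21 itself rose. The 4 became 2 without wild type 1 or wild type 3 and 8 without Fxr-/- Shp-/- 3. Pdk4, a fasting target, was at 1.41, and Ppara at -0.98. On high fat diet Pdk4 rose (1.03) and Klb, the FGF21 co-receptor, fell (-0.69) as 1 of 2 (0 to 2 rose and 1 or 2 fell over the 4 leave-out fits). Over all lists, 18 of 86 genes tested rose (20.9%, against 21.0% of all genes) and 34 fell (39.5% against 19.4%) in Fxr-/- Shp-/- livers. After hepatectomy 28 of 85 rose (32.9% against 16.4%) and 10 fell (11.8% against 14.3%). On high fat diet 4 of 84 rose (4.76% against 12.9%) and 20 fell (23.8% against 11.1%). On cholic acid 1 of 84 rose and 1 fell (1.19% each, against 2.27% and 2.5%), and after TCPOBOP 0 of 85 were called.

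**Figure D4:**
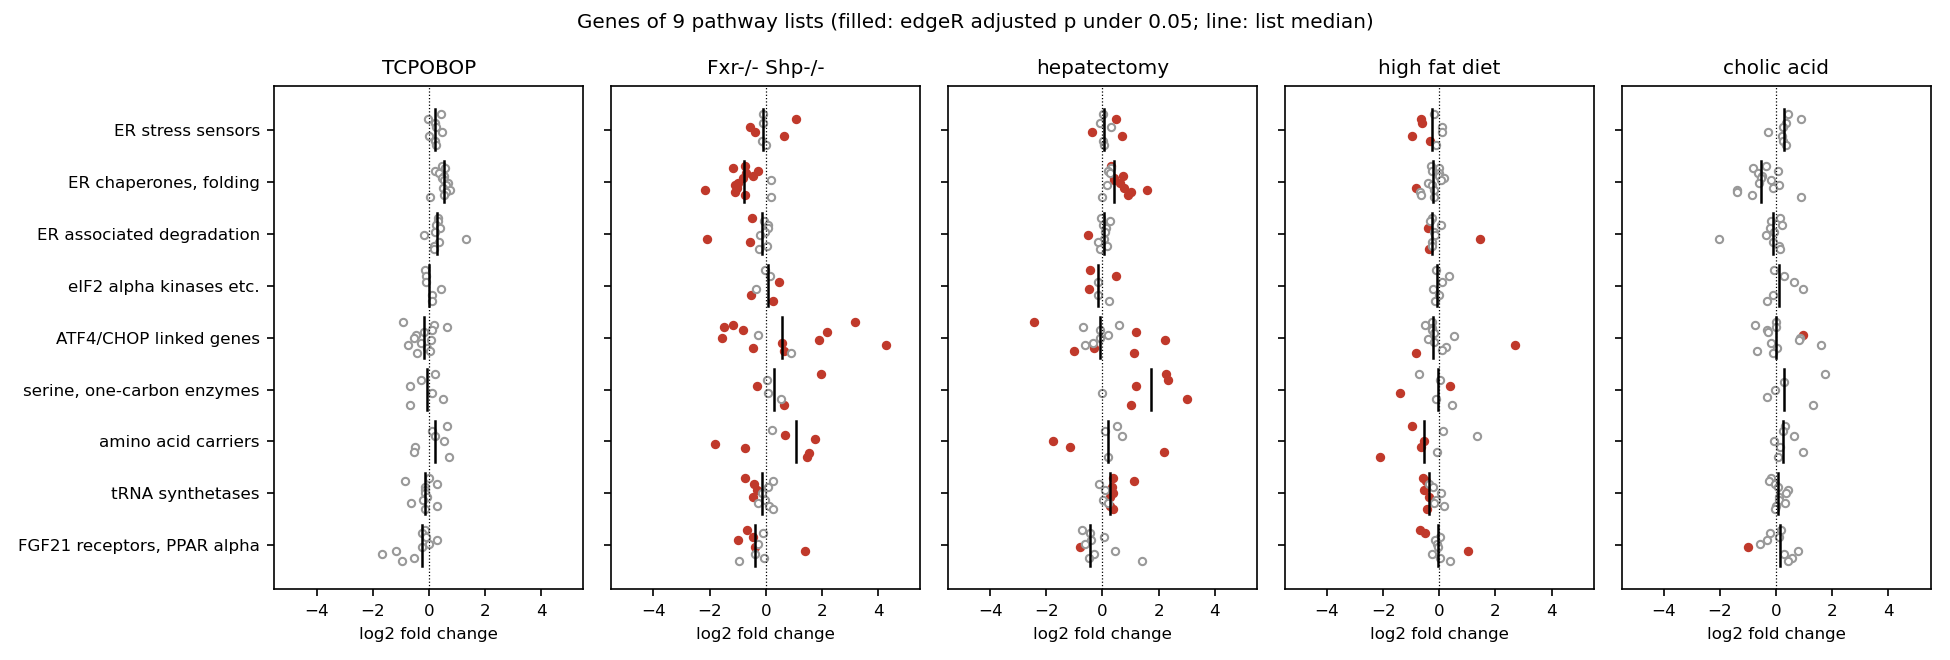
Log2 fold change of each gene tested in the 9 pathway lists, by comparison. Filled points are genes called at an edgeR adjusted p under 0.05, open points are the others, and a black line marks the list median. The ER chaperones are lowered in Fxr-/- Shp-/- livers (12 of 14) and raised after hepatectomy (9 of 14).

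The Fxr-/- Shp-/- mice carry a knockout of the bile acid receptor and the cholic acid diet feeds a bile acid, and each has its own controls. The difference between the 2 effects was called for 3 of the 10 genes, against 13.9% of 13935 genes (7.18% higher and 6.74% lower in the first effect). It was 4.49 ± 1.06 on the log2 scale for Asns (adjusted p = 0.0147), which rose in the first and was not called in the second. The Asns difference was called in each of 12 leave-out fits, with log2 values from 2.87 to 5.39. Its size leaned on floxed chow replicate 3, which was far above its group, and without which the cholic acid effect on Asns was -0.022. The difference was 2.83 ± 0.72 for Fgf21 (adjusted p = 0.0209), called in 9 of 12 leave-out fits (adjusted p of up to 0.0611). For Herpud1 it was -1.75 ± 0.52 (adjusted p = 0.0434), called in 4 of 12 (up to 0.108). With the replicate number as a block the adjusted p was 0.0124 for Asns, 0.0513 for Fgf21 and 0.0474 for Herpud1, so the call for Fgf21 was lost, and it was 0.0385 for Dnajb9, gained from 0.0689. For Hspa5, which fell in the first and was not called in the second, the difference was -0.08 ± 0.39 and was not called.

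The hepatectomy effect minus the cholic acid effect was called for 1 of the 10 genes, against 13.0% of 13985 genes (8.01% higher in the first effect). Asns differed by 4.37 ± 1.31 (adjusted p = 0.0460), called in 4 of 12 leave-out fits (adjusted p of up to 0.135) and lost with the replicate block (adjusted p = 0.0685). These comparisons span mice of different strain, age and feeding, and only the mice of the cholic acid experiment carried floxed alleles. None of this can be told apart from the difference between the treatments.

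Likeness was measured as Pearson's r over the 26 libraries, after each library's log2 level had been set against the mean of its own control group, among 12181 genes with a mean of at least 1 CPM. Points of 1 experiment share that control mean, and r is given as a description. Hspa5 was most like Creld2 (r = 0.94) and Manf (0.92), both ER genes of the chaperone list, and Stip1 (0.90). Herpud1 was most like Klf15 (0.94), Lurap1l (0.91) and Sdc4 (0.89), and none of these 3 was on the lists. Asns was most like Lhpp (0.91), Pim1 (0.87) and Fabp5 (0.86), and Fgf21 was most like Elovl5 (0.92), Fam213a (0.87) and Acss2 (0.84), of which Elovl5 and Acss2 encode enzymes of lipid synthesis. Among the genes most like Trib3 were Tm9sf2 (0.83) and Mbtps1 (0.82), the last of which encodes the protease that activates ATF6. Nearest genes were less alike for Xbp1 (Irf2bp1, 0.80), Dnajb9 (H2-K2, 0.75), Atf4 (Txnl1, 0.72), Chac1 (Gadd45g, 0.72) and Ddit3 (P4ha1, 0.68).

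For each of the 10 the nearest gene was not another member. Of the 45 pairs, Hspa5 and Xbp1 were the most alike (0.66), followed by Chac1 and Fgf21 (0.58), Dnajb9 and Ddit3 (0.57) and Hspa5 and Herpud1 (0.51). Asns and Herpud1 were the least alike (-0.40), although both windows hold the composite element. Atf4 mRNA had r between -0.15 and 0.44 with the 9 others.

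**Figure D5:**
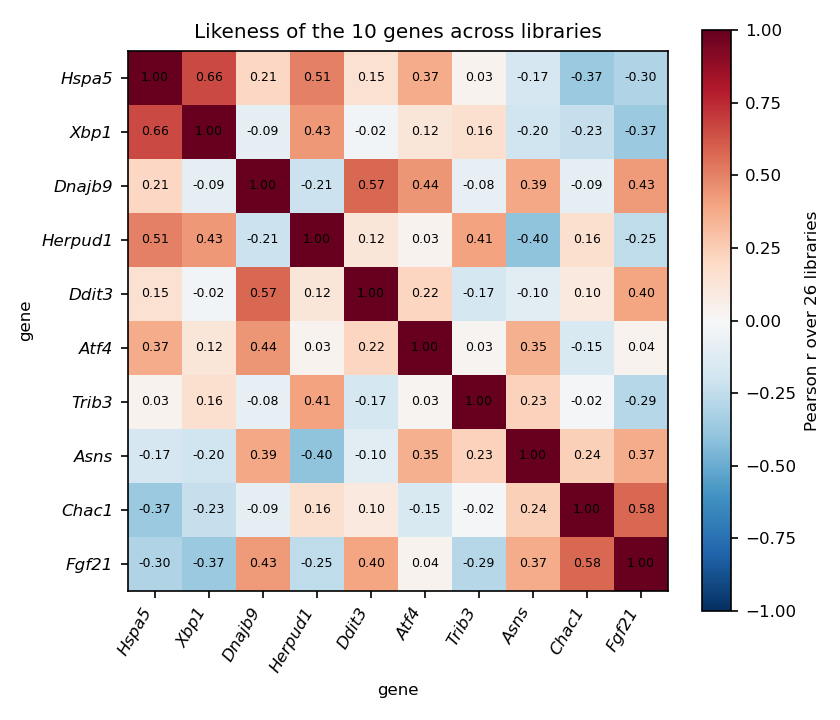
Pearson's r between the 10 genes over the 26 libraries, each library's log2 level taken against the mean of its own control group, with red for positive and blue for negative values. Hspa5 with Xbp1 (0.66) is the most alike pair and Herpud1 with Asns (-0.40) the least.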

How the data were processed

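The authors deposited 1 table of raw read counts per gene for all 26 libraries, with versioned Ensembl identifiers, and 0 of its columns were left unused. Per the labels' protocols, RNA came from flash-frozen whole liver or hepatocytes by a column kit and went into stranded TruSeq mRNA libraries. The submitters' processing notes name bcl2fastq 2.17.1.14, Trimmomatic, STAR 2.4.2a, Picard 1.119 and HTSeq, and the builds GRCm38 and mm10; the annotation version and the strand setting are not given in the sources used here. Summary lines for unassigned reads (5 lines, 23.0 to 48.6% of the reads of a library, of which ambiguous reads were 1.02 to 3.73% of all) were left out of library sizes and tests. They made up 48.1, 48.6 and 47.6% in the wild type libraries and 32.1, 33.6 and 32.2% in those of Fxr-/- Shp-/- mice. Ambiguous reads there were 1.12, 1.02 and 1.14% against 1.93, 1.97 and 1.83%. Unassigned shares also did not overlap on high fat diet (26.5 and 26.7%, chow 31.2 and 31.1%) or on cholic acid (24.4, 23.0 and 24.2%, chow 31.4, 30.4 and 30.0%). This difference goes with genotype or diet, and its part in the results was not tested. Symbols were matched by identifier without version for 47224 of 47643 genes.

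Each treated group was compared with its own control. The filter on low counts was filterByExpr (a minimum count of 10 and a total of 15) and the scaling TMM. The test was edgeR's quasi-likelihood test (edgeR 4.0.16, limma 3.58.1, R 4.3.3), with Benjamini-Hochberg adjustment over all genes tested and a threshold of 0.05. Joint fits tested the difference between 2 effects. Levels in CPM were scaled over all 26 libraries, and likeness used log2 of CPM plus 0.5. The edgeR fit of each treated group against its control was also run on simulated counts with the same dispersion for every gene. That simulation held no outlying library and did not cover the joint fits. Replicates of a group differed beyond sampling noise in every pair. The depth, 13949059 to 70367874 counts, sets the smallest level shown at 3 counts, and counting intervals would cover counting error only.

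The members, the pathway lists and the marker lists were chosen with earlier results of these data known. In each list, the text names up to 2 genes with the largest change among those called whose average log2 CPM reached 1. For likeness, up to 3 genes of highest r were named. Some genes that these rules select are not reported here.

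Same-numbered libraries share a number in the titles. Over genes, same-numbered libraries deviated together in the cholic acid experiment, where r was 0.13, 0.15 and 0.10. It was -0.18, -0.038 and -0.019 in the Fxr-/- Shp-/- and -0.075, 0.072 and -0.0014 in the hepatectomy experiment. It was 0.10 in the TCPOBOP and 0.094 in the high fat diet experiment, where groups of 2 libraries leave 1 value apart from its sign. These values do not settle whether the libraries were paired, and the labels do not state it. The main fits, those of cholic acid included, therefore held no block, and the replicate number as a block was an alternative. The alternatives tried were the Wald test of DESeq2 1.42.0, its size factors in edgeR, a filter at a mean count of 10 or none, the replicate number as a block, all 26 libraries in 1 fit, and leaving out each library. Promoter sequences and motif shares came from RefSeq, and gene positions and exon lengths from GENCODE M21, whose match to the authors' annotation is unknown.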

Additional observations from a re-analysis of the deposited data

Results flagged for a closer look

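In 4 cases the effects of 2 treatments differed by a test of the difference itself (edgeR, joint fit, Benjamini-Hochberg adjustment over all genes). Asns had a log2 difference of 4.49 between the Fxr-/- Shp-/- effect and the cholic acid effect, and of 4.37 between the hepatectomy effect and the cholic acid effect. Fgf21 had a difference of 2.83 and Herpud1 of -1.75 between the Fxr-/- Shp-/- effect and the cholic acid effect. Only the first Asns difference was called in all 12 leave-out fits. The second was called in 4 of 12, that of Fgf21 in 9 and that of Herpud1 in 4. With the replicate block, the calls for Fgf21 (edgeR adjusted p = 0.0513) and for the second Asns difference (0.0685) were lost. All 3 Fxr-/- Shp-/- livers lay above all 3 wild type livers for Asns and Fgf21 and below them for Herpud1 (53.7% of genes tested did not overlap there). The cholic acid and chow livers overlapped for each of the 3 genes, and no share over all genes was taken there. The genes were picked by their called differences, so these overlaps describe them and add no support. The experiments also differ in age, feeding, the floxed alleles of the cholic acid experiment and, for hepatectomy, strain, which cannot be told apart from the treatments. Groups of 2 or 3 libraries were too small for the check on single outlying samples.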

How the results depend on the processing

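With all 26 libraries in 1 fit, 9 genes were called after TCPOBOP, 1735 on high fat diet, 3132 on cholic acid, 2991 for the Fxr-/- Shp-/- effect minus the cholic acid effect and 2749 for the hepatectomy effect minus it, and the members called were 4 in Fxr-/- Shp-/- livers (Hspa5, Asns, Fgf21 and Herpud1), 1 after hepatectomy (Asns) and 2 on high fat diet (Asns and Trib3). DESeq2 called 91 genes and 1 member (Trib3) after TCPOBOP, 3 members on high fat diet (Asns, Herpud1 and Atf4) and 1445 genes on cholic acid. With no filter 3 members were called on high fat diet (Asns, Herpud1 and Trib3) and 955 genes on cholic acid, and with DESeq2's size factors 3 members on high fat diet (Asns, Trib3 and Atf4). With the replicate number as a block the counts were 0, 4763, 3664, 3693 and 480 genes for TCPOBOP, Fxr-/- Shp-/-, hepatectomy, high fat diet and cholic acid, and 0, 7, 4, 3 and 0 members. The block added Fgf21 after hepatectomy (adjusted p = 0.0401) and Herpud1 and Trib3 on high fat diet. It gave Chac1 log2 -0.39 on cholic acid and a difference of 0.37 between the Fxr-/- Shp-/- and cholic acid effects, neither called, and beyond the calls given in the report it changed no other call of a member.

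Leaving out 1 library at a time gave 0 to 1233 genes and 0 to 4 members called after TCPOBOP, 3969 to 6024 genes and 6 to 7 members in Fxr-/- Shp-/- livers, 2554 to 4217 genes and 1 to 4 members after hepatectomy, 1141 to 2644 genes and 1 to 3 members on high fat diet, and 189 to 1345 genes and 0 members on cholic acid. The differences gave 1325 to 2350 genes for Fxr-/- Shp-/- minus cholic acid and 1089 to 2495 for hepatectomy minus cholic acid. The 4 members came without the library labelled corn oil 1 (Chac1, Fgf21, Herpud1 and Trib3). With 1 library left in a group, that library is assumed to vary like the others. Log2 values that changed sign did so for genes not called with all libraries, over these ranges. After TCPOBOP, Xbp1 from -0.078 to 0.41, Dnajb9 from -0.040 to 0.26, Herpud1 from -0.67 to 1.79, Ddit3 from -0.90 to 0.28, Asns from -0.69 to 1.90 and Chac1 from -2.90 to 0.41. In Fxr-/- Shp-/- livers, Atf4 from -0.061 to 0.0061 and Chac1 from -0.36 to 0.31. After hepatectomy, Dnajb9 from -0.12 to 0.15, Ddit3 from -0.51 to 0.20 and Atf4 from -0.0041 to 0.20. On high fat diet, Hspa5 from -0.56 to 0.073, Xbp1 from -0.21 to 0.11, Ddit3 from -0.51 to 0.53 and Fgf21 from -0.55 to 0.25. On cholic acid, Xbp1 from -0.29 to 0.0070, Ddit3 from -0.54 to 0.61 and Chac1 from -1.26 to 0.47. For the Fxr-/- Shp-/- effect minus the cholic acid effect, Hspa5 from -0.45 to 0.19, Ddit3 from -0.14 to 1.01 and Chac1 from -0.49 to 1.24. For the hepatectomy effect minus the cholic acid effect, Ddit3 from -0.74 to 0.40, Chac1 from -1.68 to 0.057 and Fgf21 from -0.35 to 0.69. The only one of these called after its sign changed was Herpud1 after TCPOBOP. The cause of these changes was not tested. Of the other values of single members, 388 under the changed settings kept their direction and their side of the threshold, 17 gained the call and 7 lost it. With 1 library left out 413 kept both, 15 gained and 27 lost the call. Scarce members are limited by depth: Chac1, Fgf21 and Asns had 3 to 13 counts in their lowest libraries.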
